A study of Drosophila melanogaster with 2 samples.

Results

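Of the 30000 peaks that the authors called on both replicates together, 334 (1.11%) had their summit at the start of a long noncoding RNA (lncRNA) gene and at no protein-coding start. A peak was counted when its summit lay within 250 bp of a transcription start of a gene whose symbol begins with lncRNA and more than 250 bp from every protein-coding start. Positions and gene annotation alone chose these peaks, so their signal, their repetition between replicates and their sequence took no part in the choice. The peaks come from chromatin immunoprecipitation with sequencing (ChIP-seq) of CG17829, named Hinfp in the gene annotations, tagged with GFP at its C terminus and recovered with an antibody against GFP. The material was whole Drosophila melanogaster embryos, 0 to 24 h old and of both sexes, from 1 transgenic line, in 1 group of 2 biological replicates numbered 4 and 2. There was no second genotype, age or treatment, and the promoter that drives the tagged protein is not given in the sources used here. An embryo collection of this span mixes stages and tissues, so a peak cannot be assigned to a cell type.

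Vertebrate HINFP is a zinc finger protein known for activating histone H4 genes at the entry to S phase. LncRNA genes are transcribed, often by RNA polymerase II, into RNAs that are not translated, and many in the fly are known only from transcript evidence and carry a CR number in place of a name. A few have well studied roles: roX1 and roX2 RNAs are parts of the dosage compensation complex of the male X chromosome, Hsromega RNA builds nuclear speckles and is strongly induced by heat shock, and flam is a precursor of piRNAs that silence transposons in the ovary. Many fly housekeeping promoters carry the DNA replication-related element (DRE), bound by Dref, or Motif 1, bound by M1BP. Promoters of regulated genes more often carry a TATA box, an initiator or GAGA repeats.

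The following windows of 101 bases centred on the summit are examples from strong lncRNA-start peaks and from peaks at lncRNAs of known role. They are a selection: the strongest peak, that of CR44339, is not shown. CR44331 (rank 930) is shown while several stronger peaks are not, so no frequency of words can be read from these windows. They were read from the RefSeq sequence of the dm6 assembly and are written 5′ to 3′ on the strand of the lncRNA. Capitals mark any of 11 chosen words and of 10 eight-base words found at the other peaks, all described further on. The windows are CR31044 at chr3R:29214391-29214491 (plus strand), CR46036 at chr3R:17700533-17700633 (plus), CR31840 at chr2L:14024036-14024136 (minus), CR44917 at chr2L:21867422-21867522 (plus), CR45668 at chrX:5900162-5900262 (minus), CR44331 at chr3R:8114077-8114177 (minus), Hsromega at chr3R:21296261-21296361 (plus), flam at chrX:21631695-21631795 (plus), roX1 at chrX:3862603-3862703 (minus) and roX2 at chrX:11579076-11579176 (plus).
CR31044: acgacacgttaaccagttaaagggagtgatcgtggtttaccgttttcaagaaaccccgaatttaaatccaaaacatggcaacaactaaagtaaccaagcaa
CR46036: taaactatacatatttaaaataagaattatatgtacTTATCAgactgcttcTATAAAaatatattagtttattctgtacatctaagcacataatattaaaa
CR31840: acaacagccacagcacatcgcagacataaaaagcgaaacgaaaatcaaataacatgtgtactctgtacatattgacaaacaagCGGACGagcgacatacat
CR44917: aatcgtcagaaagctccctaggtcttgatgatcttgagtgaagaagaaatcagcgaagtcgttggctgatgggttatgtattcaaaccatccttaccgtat
CR45668: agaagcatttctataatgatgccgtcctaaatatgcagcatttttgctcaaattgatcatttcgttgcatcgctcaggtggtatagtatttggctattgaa
CR44331: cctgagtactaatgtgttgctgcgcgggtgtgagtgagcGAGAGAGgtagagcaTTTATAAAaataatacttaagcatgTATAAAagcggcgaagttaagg
Hsromega: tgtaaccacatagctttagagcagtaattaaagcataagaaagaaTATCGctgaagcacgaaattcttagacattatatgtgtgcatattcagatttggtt
flam: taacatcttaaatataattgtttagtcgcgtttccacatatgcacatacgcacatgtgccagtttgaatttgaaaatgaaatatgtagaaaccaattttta
roX1: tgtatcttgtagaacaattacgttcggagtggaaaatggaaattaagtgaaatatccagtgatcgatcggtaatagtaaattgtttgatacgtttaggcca
roX2: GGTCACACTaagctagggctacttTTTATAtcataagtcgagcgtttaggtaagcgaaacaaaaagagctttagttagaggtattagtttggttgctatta
The windows of CR31044, CR44917, CR45668, flam and roX1 held none of these words. The window of CR46036 held a TATA word and a GATA word, and that of CR44331 held TATA words beside a GAGA word. In CR31840 the capitals are the core recognised by vertebrate HINFP, read on the opposite strand. The BEAF-32 word was in the Hsromega window. A Motif 1 core stood at the edge of the roX2 window, with a TATA word further in. A match is a run of letters and does not show that a factor was bound there.

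The lncRNA-start peaks were spread over the strength range of the pooled list and were, as a group, weaker than peaks at coding starts. Their median signal was 72.34 in the authors' signal values, which have no stated scale, with quartiles at 43.15 and 148.4. The median over peaks at coding starts was 130.3, that over peaks at no annotated start was 55.97, and that over all pooled peaks was 67.38. Ranked from strongest to weakest among 30000 peaks, the lncRNA-start peaks had a median rank of 14176, against 8420 at coding starts, 17410 at no start and 15000 overall. The strongest end was not empty of them: 14 were among the 1000 strongest peaks (1.40%) and 3 among the 100 strongest. With 1 group of samples and peaks that are not replicates of one another, none of these differences between classes could be tested over samples.

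The authors also deposited a shorter list cut at an irreproducible discovery rate (IDR), a measure that keeps peaks of repeatable rank. This list held exactly the 7915 strongest pooled peaks, the background share being 26.4%. Being in it is thus a cut on pooled signal, and the shares below restate the ranks above against that cut. Of the lncRNA-start peaks, 93 of 334 were in it, which is 27.8% with an exact binomial 95% interval of 23.1 to 33.0%, a share near that background. Among the 94 peaks at both an lncRNA and a coding start the share was 41.5%, among the 7630 at a coding start alone it was 47.4%, and among the 21647 at no annotated start it was 19.0% (18.4 to 19.5%). The interval of the lncRNA-start peaks thus overlapped neither that of coding-start peaks nor that of peaks away from starts. All intervals here cover counting error only and treat peaks as independent. The 93 peaks had a median signal of 265.9, beside 241.3 over the IDR list, and 55 of them were in its stronger part, the top 3957 peaks. Just inside the IDR boundary lay the peaks of CR43314 (rank 7868) and CR45911 (rank 7874), and just outside it those of CR45565 (rank 7933) and CR45297 (rank 8022).

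**Figure D1:**
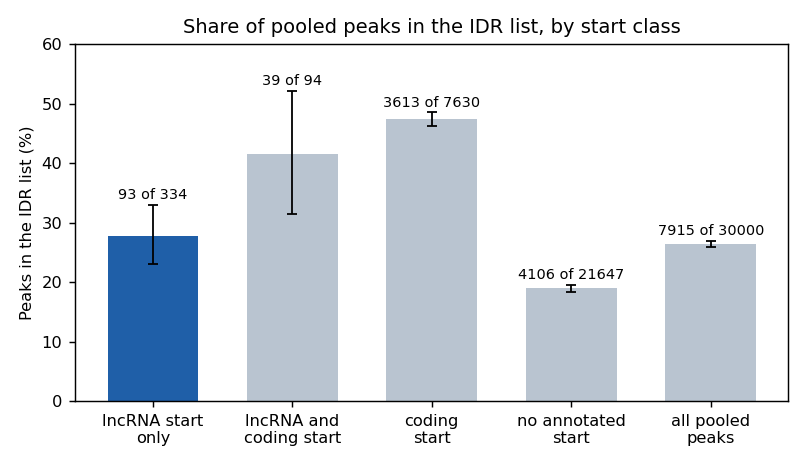
Percentage of pooled peaks that are in the IDR list, by the kind of start within 250 bp of the summit, with counts above the bars and exact binomial 95% intervals as error bars. The bar of lncRNA-start peaks (27.8%) stands near that of all pooled peaks (26.4%), above that of peaks at no annotated start (19.0%) and below that of coding-start peaks (47.4%).

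Most lncRNA-start peaks were found in each replicate. Of the 334, 266 (79.6%, 74.9 to 83.8%) overlapped a peak of both replicate lists by 1 bp or more, against a background of 75.5% over all pooled peaks, 91.7% at coding starts and 69.6% at no start. A further 65 overlapped a peak of 1 replicate and 3 of neither. All 93 peaks of the IDR list were in both replicates, as were 173 of the 241 others (71.8%). Across the 266 matched peaks, the log10 signal in replicate 4 and in replicate 2 had a Spearman correlation of 0.714 and a Pearson correlation of 0.818, as a description over peaks that share their libraries. Within the IDR list the Spearman value was 0.814 (n = 93) and outside it 0.242 (n = 173), so order was largely kept among strong peaks and poorly among weak ones, a split that the IDR list itself makes by its choice of peaks. Distances between the replicates' own summits showed the same split, with a median of 23.0 bp in the IDR list and 81.0 bp outside it. Neighbouring peaks could be matched to 1 replicate peak, which was so for 48 members in replicate 2 and 32 in replicate 4.

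**Figure D2:**
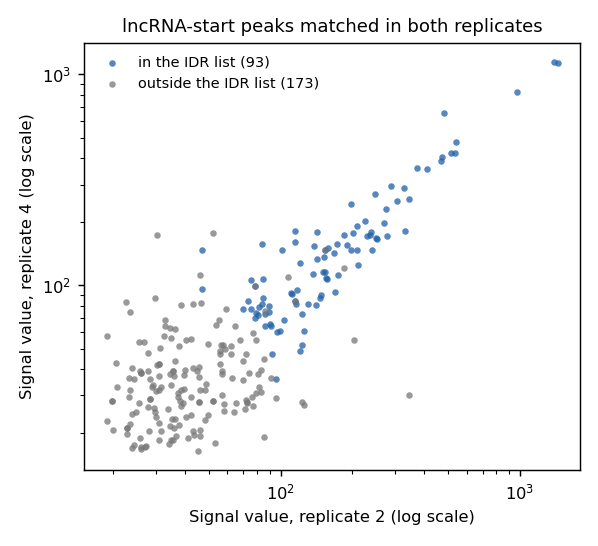
Authors' signal value of the matched peak in replicate 2 (x axis) and replicate 4 (y axis), both on log scales, for the 266 lncRNA-start peaks found in both replicates. The 93 peaks of the IDR list lie along a diagonal (Spearman 0.814), while the 173 others form a cloud at low signal (0.242).

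Choosing peaks by the same distances in each replicate's own list gave nearly the same numbers. Replicate 4 had 333 such peaks and replicate 2 had 338. Among each replicate's 7915 strongest peaks were 92 (27.6%, 22.9 to 32.8%) in replicate 4 and 102 (30.2%, 25.3 to 35.4%) in replicate 2, each set against a background of 26.4%.

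The strongest of these peaks belong to lncRNAs with no well known role. CR44339 (FBgn0265427), on arm 2R at 4205 bp from the nearest coding start, that of the Polycomb group gene Psc, had rank 25, with a signal of 1133 in replicate 4 and 1447 in replicate 2. CR31044 (FBgn0051044) ranked 29, with 1144 in replicate 4 and 1396 in replicate 2, and lay 5731 bp from eEF1gamma, which encodes a translation elongation factor subunit. CR46036 (FBgn0267703) ranked 82, with 822.3 and 974.5, its summit in an intron of osa, a subunit gene of a Brahma chromatin remodelling complex, on the opposite strand. These 3 stood well above the rest in both replicates. CR31840 (FBgn0051840) followed at rank 253, with 654.0 in replicate 4 and 484.6 in replicate 2, and ranks of 148 and 418 in these lists. Unlike the first 3, it had the higher value in replicate 4, and its summit lay 13 bp downstream of the start. The signal scale may differ between the replicate lists, so a higher value in 1 replicate is a description and is not read as stronger binding there. A second, weaker peak of the IDR list, overlapping that of CR31840 at rank 253, stood at the same start (rank 7743).

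Next came CR44810 on 2R, rank 315, with 479.1 in replicate 4 and 543.5 in replicate 2; its nearest coding gene was slbo, the C/EBP factor of border cell migration. CR44917 had 424.3 and 537.5 in the same order (rank 343), and its nearest coding start, that of CG11629, was 30817 bp away. CR45668 was similar in level, with 422.6 and 517.3 (rank 368), but stood only 649 bp from the cytoplasmic actin gene Act5C. CR46102, in an intron of the lipophorin receptor gene LpR2, had 404.0 and 471.9 (rank 432). In all 4, replicate 2 had the higher signal value, though CR44810 ranked 328 in replicate 2 and 295 in replicate 4. CR45541, upstream of which the summit lay at 248 bp, near the edge of the distance limit, had 387.7 and 467.9 (rank 464), with the hexokinase gene Hex-A nearest. CR45645, near the ESCRT-II gene lsn, had 357.6 and 411.5 (rank 575), and CR44700 had 358.6 and 372.1 (rank 631).

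The remaining peaks among the 20 strongest had signals from 171.4 to 296.6 in replicate 4 and from 247.3 to 344.5 in replicate 2. CR44222 lay in an intron of kis, a chromatin remodeller, with 287.9 in replicate 4 and 329.8 in replicate 2. CR44331 lay in an intron of puc, the phosphatase of the JNK pathway, and had nearly equal values of 296.6 and 289.1. CR30055 (2R) lay in an intron of Sin3A, a corepressor, 440 bp from its start, with 230.3 and 276.6. CR43949 was nearest to Notum, which inactivates Wnt ligands, and had 171.4 and 279.4, the lower replicate 4 value giving it rank 2046 there. CR44463 (2R) is the 1 lncRNA-start peak whose interval spans a coding start, that of mRpL41, and its summit stood 337 bp from it. Hsromega, described with the known lncRNAs, was the fifteenth, and CR45290, CR43302 and CR43651 (2R) made up the 20. All 20 had a replicate rank within 2-fold of their pooled rank, and their lowest ranks were 2046 in replicate 4 and 1475 in replicate 2.

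**Figure D3:**
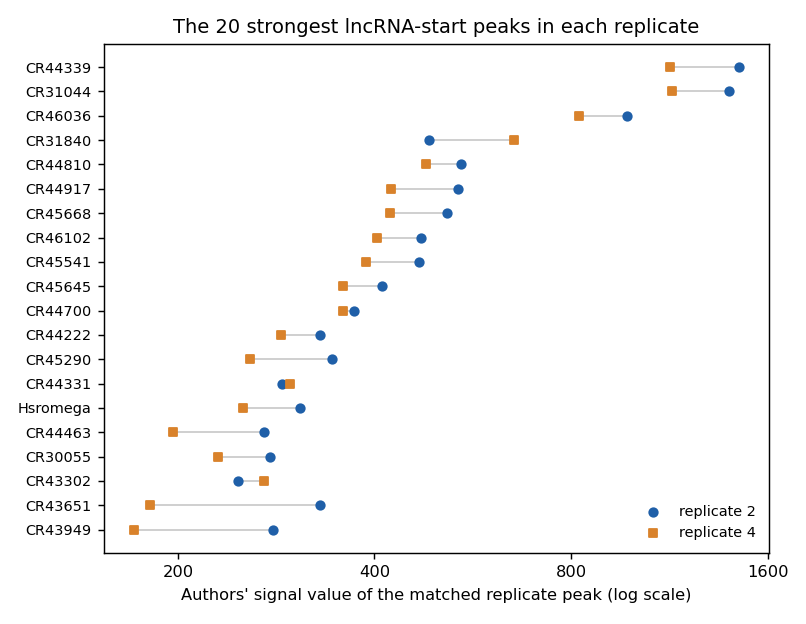
Authors' signal value (log scale) of the 20 strongest lncRNA-start peaks in replicate 2 (circles) and replicate 4 (squares), strongest pooled peak at the top, a grey line joining both values of 1 peak. CR44339, CR31044 and CR46036 stand above the rest in both replicates. Replicate 2 has the higher value at most peaks, on a scale that may differ between the lists.

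LncRNAs of known role had peaks from rank 1037 down to rank 23216. The list of such genes held 18 names, of which 14 matched the annotation and 10 had an lncRNA-start peak, 3 of them in the IDR list: Hsromega, flam and roX1. Over all 1773 lncRNA genes away from coding starts, 16.1% had a pooled summit at the start and 4.96% an IDR summit, and over the 88 of them with several starts 46.6% and 18.2%. The list was chosen with results known and several of its genes have more than 1 start, so nothing is read from its count. Hsromega (FBgn0001234) had 2 peaks, one at rank 1037 with 251.4 in replicate 4 and 307.2 in replicate 2, and one at rank 4770 with 157.1 and 83.95. These 2 peaks are summits of 1 interval and differed in which replicate had the higher value. At flam (FBgn0267704) the summit lay 146 bp upstream of the start, with 166.0 in replicate 4 and 252.6 in replicate 2 (rank 1708). At roX1 (FBgn0019661) a peak 44 bp downstream of a start had 99.27 and 78.25 (rank 7098), close to the lower end of the IDR list, and a weaker pooled peak at rank 15482 matched the same replicate peaks. The peak of roX2 (FBgn0019660) had 64.13 and 64.71 (rank 8212) and was outside the IDR list.

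The peaks found at other known lncRNAs were outside the IDR list. Those of the bithorax complex were iab8, with peaks at ranks 8754 and 23216, and iab4, at rank 13026; the weaker iab8 peak had no match in replicate 4. The RNA yar, known for a role in sleep, had 29.31 in replicate 4 and 95.83 in replicate 2 (rank 8935), an uneven pair. Ranks were 15446 for sphinx, known from male courtship, 19088 for acal, known from dorsal closure, and 21696 for let7C, the host of let-7 microRNAs. No pooled summit lay within 250 bp of a start of bxd, cherub, noe or CRG. The nearest to bxd was 574 bp away.

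Seen from the genes, a small minority of lncRNA genes had a summit near the start. The annotation held 1944 lncRNA genes on the 6 chromosome arms, of which 1773 had a start more than 250 bp from every coding start. Of these, 286 (16.1%, 14.4 to 17.9%) had a pooled summit within 250 bp of a start, and 88 (4.96%, 4.00 to 6.08%) had a summit of the IDR list. Only lncRNA-start peaks were counted here, so summits also within 250 bp of a coding start were left out. Among 13945 protein-coding genes, with no summits left out, the shares were 48.9% and 31.7%. Genes with several starts have more sequence in reach, so genes with 1 start were also compared: 14.5% of 1685 lncRNA genes had a pooled summit, against 41.6% of 10246 coding genes, and 4.27% against 26.4% had an IDR summit. An lncRNA that starts inside a coding gene had a pooled summit about as often (15.9% of 454) as one that starts between coding genes (16.2% of 1319). The lncRNA shares include summits that would be met at the density of the surrounding sequence. In the pooled list, summit density in the 250 bp upstream of lncRNA starts was 1.57 times the level further out, and downstream 1.01 times it. In the IDR list these ratios were 2.64 and 0.857. A large part of the pooled share would thus be met at the surrounding density alone. The excess of the gene shares over that density was not tested.

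The 334 peaks reached 294 lncRNA genes, all of which are also lncRNAs in RefSeq. Of these genes, 252 had 1 peak, 41 had 2 and 1 had 4. The gene with 4 peaks, CR43650 on 2R, chosen here for that count after its values were seen, had 3 of them in the IDR list, at ranks 1968, 4394 and 6230, and the fourth at rank 18430. Those at ranks 1968 and 6230 are summits of 1 interval, and those at ranks 4394 and 18430 overlap, so these are not 4 separate sites. Of the 292 genes nearest to a summit, 278 carry a CR number. Pooled peaks can overlap one another, and 127 of the lncRNA-start peaks (38.0%) overlapped another pooled peak, beside 35.7% of all pooled peaks.

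The density of summits around lncRNA starts was highest just upstream of the start. Around the 1874 lncRNA starts away from coding starts, IDR summits, counted at each start in reach, numbered 73 in the 250 bp upstream. This was 15.9 per 100 kb of sequence, leaving out bases near coding starts. In the 16 bins of 250 bp between 1000 and 3000 bp away the density was 6.01, with single bins from 3.41 to 7.84. The upstream bin was 2.64 times this level, and the first 250 bp downstream, at 5.15 per 100 kb (24 summits), was 0.857 times it. The same ratio for the upstream bin was 2.46 in the 7915 strongest peaks of replicate 4 and 2.89 in those of replicate 2. Around 19253 coding starts the IDR density upstream was 92.4 per 100 kb, 10.7 times the level further out. Around both kinds of start, a summit near several starts was counted at each. For coding starts no bases were left out. Their densities and ratios are therefore not directly comparable with those at lncRNA starts. A further high bin stood 500 to 750 bp downstream of lncRNA starts, with 50 IDR summits (11 per 100 kb), noticed after the values were seen. In the whole pooled list the lncRNA upstream bin was 44.4 per 100 kb, 1.57 times the level further out, and the downstream bin was 28.5, or 1.01 times it.

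**Figure D4:**
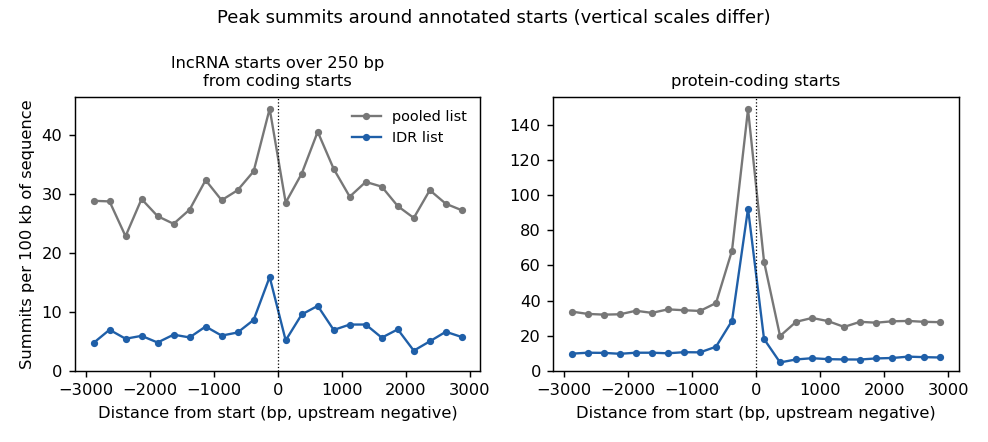
Summits per 100 kb of sequence in bins of 250 bp around lncRNA starts over 250 bp from coding starts (left) and around protein-coding starts (right), for the pooled list (grey) and the IDR list (blue); the vertical scales differ. Both kinds of start have their highest bin directly upstream, 15.9 IDR summits per 100 kb at lncRNA starts and 92.4 at coding starts. A summit near several starts was counted at each in both panels. Bases near coding starts were left out only in the left panel, so the levels of both panels are not directly comparable.

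The side of the start showed the same pattern in the peaks themselves. Of the 93 lncRNA-start peaks in the IDR list, 69 (74.2%, 64.1 to 82.7%) had their summit upstream of the nearest lncRNA start, beside 128 of the 241 outside it (53.1%, 46.6 to 59.5%). In the replicates' own strongest lists the upstream share was 72.8% of 92 peaks in replicate 4 and 73.5% of 102 in replicate 2. Peaks at coding starts of 1 strand gave 81.2% in the IDR list and 65.1% in all. The distance itself was spread nearly evenly over the allowed 250 bp: the 5 successive bands of 50 bp held 20.7, 20.1, 21.6, 19.5 and 18.3% of the lncRNA-start peaks. At coding starts the corresponding shares were 35.6, 24.5, 17.5, 12.9 and 9.55%, falling away from the start. The median distance was 124 bp at lncRNA starts and 78 bp at coding starts. Just inside the distance limit were the peaks of CR32773 at 250 bp (signal 41.21) and CR45941 at 249 bp (39.00), and just outside it those at CR44299 (67.04) and CR44371 (60.92), both at 251 bp.

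Most lncRNA-start peaks lay between protein-coding genes, where most lncRNA genes also start. Of the 1773 lncRNA genes away from coding starts, 1319 start between coding genes and 454 within one, a proportion close to that of the peaks. The summit was intergenic with respect to coding genes at 249 peaks (74.6%), of which 30.5% (24.9 to 36.7%) were in the IDR list, and inside a coding gene at 85 (25.4%), of which 17 were (interval 12.1 to 30.1%). Of those 85 summits, 81 were in introns and 4 in exons. Among peaks at no annotated start, 67.9% lay in a coding gene, and their IDR shares were 21.7% between genes and 17.7% within them. The lncRNA ran against the strand of the surrounding gene at 62 of the 85 peaks and along it at 23. This was near the annotation's own proportion, in which 291 of 454 lncRNA genes that start in a coding gene (64.1%) run against it. All 5 of the 20 strongest peaks that lay in a coding gene (osa, LpR2, kis, puc and Sin3A) had the lncRNA on the opposite strand.

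The lncRNA-start peaks lay about as far from coding starts as peaks at no annotated start did. The median distance to the nearest coding start was 3360 bp, against 3157 bp for peaks at no annotated start. At 2001 to 5000 bp from a coding start, 30.7% of 101 lncRNA-start peaks (21.9 to 40.7%) and 17.0% of 5359 no-start peaks were in the IDR list. At 251 to 500 bp the shares were 34.6% of 26 (17.2 to 55.7%) and 29.3% of 1859. The gap was narrowest at 501 to 1000 bp, where the shares were 20.7% of 29 and 20.4% of 2683. Only 9 of the 334 peaks overlapped a peak at a coding start, and without them 28.0% of 325 were in the IDR list.

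By chromosome arm, the lncRNA-start peaks numbered 81 on 2L, 60 on 2R, 82 on 3L, 71 on 3R, 38 on X and 2 on the fourth chromosome. The IDR share ran from 22% on 3L to 36.7% on 2R among the large arms, with overlapping intervals, beside 26.7% and 27.4% of all pooled peaks on these arms.

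Genes for embryonic transcription factors were neighbours of lncRNA-start peaks at a share near that of all pooled peaks. Of a list of 99 such genes, all matched in the annotation, a member was the nearest or surrounding coding gene at 12 lncRNA-start peaks (3.59%, 1.87 to 6.19%), beside 4.46% of all pooled peaks and 5.54% of peaks at no start. In the IDR list were TS2 near the odd-skipped family gene sob (rank 3327), CR45559 with the pair-rule gene ftz as nearest coding gene 28973 bp away (rank 5229), and CR46454 at 2256 bp from the spalt gene salm (rank 7301). Others outside it had salr, Dfd, abd-A, ftz, tup, svp or run as nearest or surrounding gene.

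The DRE and the Motif 1 core, both words of housekeeping promoters, were rarer in lncRNA-start windows than in coding-start windows. Each window reached 50 bp to each side of the summit, and each word was looked for on both strands. The DRE, TATCGATA, was in 1 of 334 windows (0.299%, 0.00758 to 1.66%), beside 5.36% of coding-start windows, 0.328% of no-start windows and 1.62% of all pooled windows. The Motif 1 core, GGTCACAC, was in 1 window as well (0.299%, same interval), that of roX2, beside 4.64% at coding starts, 0.245% at no start and 1.37% of all pooled windows. For both words the interval holds the no-start share and the share of all pooled windows. CGATA, a word bound by the insulator protein BEAF-32 and contained in the DRE, was in 9.28% of lncRNA-start windows (6.39 to 12.9%) and 11.7% of their flanks, beside 26.1% of coding-start windows, 10.7% of no-start windows and 14.7% of all. None of the 93 IDR windows had the DRE or Motif 1, where a count of 0 still allows a share of up to 3.89% by the exact interval. The 7822 other IDR windows had shares of 3.45% and 2.90%, so for these words the absence cannot be told apart from their level. CGATA was in 5 of the 93 IDR windows (5.38%, 1.77 to 12.1%). Its share in the 7822 others, of which 3613 are at coding starts alone, was 19.8%, above that interval.

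The 10 eight-base words that gained most at the summits of the 7822 other IDR peaks, relative to windows 500 bp away, were all pieces or variants of the DRE and Motif 1 and overlap one another. They are GGTCACAC, TATCGATA, ATCGATAG, TGGTCACA, CGGTCACA, AGTGTGAC, ACTATCGA, GCTATCGA, GTTATCGA and ATCGATAA. At least 1 of them was in 7 lncRNA-start windows (2.10%, 0.847 to 4.27%), beside 15.8% at coding starts, 1.80% at no start and 5.39% of all pooled windows. The peaks used to choose the words include 3613 coding-start peaks and no lncRNA-start peaks. Shares over classes that hold those peaks, and over the IDR list, are thus raised in part by the choice. In the lncRNA-start flanks, 500 bp to each side of the summit, the share was 1.80% of 668 windows. Within the IDR list, 1 of the 93 lncRNA-start windows held any (1.08%, 0.0272 to 5.85%), beside 9.96% of the whole IDR list. None of the 20 strongest lncRNA-start peaks held any. A count of 0 in 20 still allows a share of up to 16.8%, so nothing is read from it. The 7 peaks with such a word are named for holding one after the values were seen. CR44127 alone was in the IDR list, and the others were CR45297, CR43314 (its peak at rank 8196), roX2, CR44417, CR43256 and CR45103.

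Words of regulated promoters gave shares closer to those of other peaks. The TATA box, searched as TATAAA, was in 13.8% of lncRNA-start windows (10.3 to 17.9%), 15.8% at coding starts and 16.6% of all pooled windows. Within the IDR list it was in 22.6% of the 93 windows (14.6 to 32.4%), beside 22.5% of the 7822 other IDR windows. The initiator, searched as TCAGT, was in 18.0%, against 17.0% of all. GAGAG, recognised by GAGA factor, was in 17.1% (13.2 to 21.5%), with 13% of all pooled windows and 14.1% of the lncRNA-start flanks. CGTCCG, the core recognised by vertebrate HINFP, was in 10 windows (2.99%, 1.44 to 5.44%), beside 2.45% at coding starts, 1.12% at no start, 1.49% of all pooled windows and 1.95% of the flanks. Of those 10 windows, 2 were in the IDR list. The E-box, searched as CAGCTG, was in 5.09% against 4.64% of all, the GATA factor word, searched as TGATAA, in 5.99% against 7.75%, the repeat CACACACA in 5.09% against 3.0%, and the Zelda word, searched as CAGGTAG, in 0.599% against 0.563%.

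**Figure D5:**
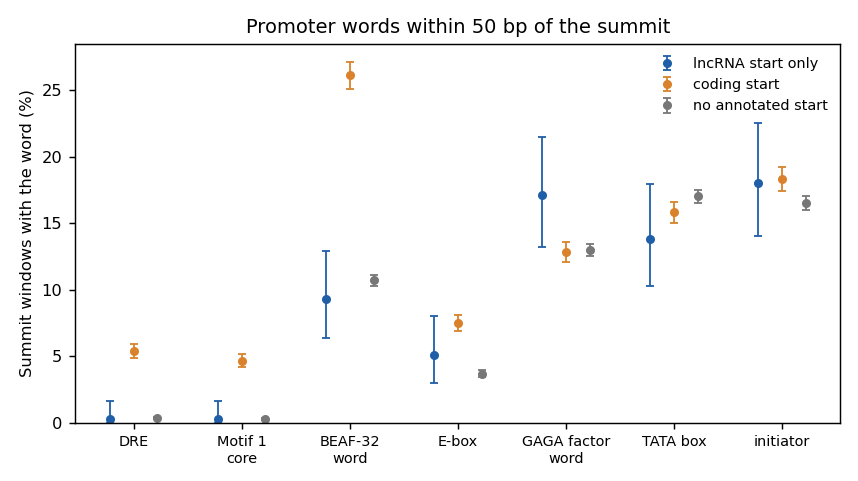
Percentage of summit windows that hold each promoter word on either strand, for peaks at lncRNA starts only, at coding starts and at no annotated start, with exact binomial 95% intervals. The DRE, the Motif 1 core and the BEAF-32 word are at 0.299, 0.299 and 9.28% at lncRNA starts against 5.36, 4.64 and 26.1% at coding starts, while the lncRNA-start intervals overlap those of both other classes for the E-box, the GAGA factor word, the TATA box and the initiator.

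Strong lncRNA-start summits were richer in A and T than weak ones, as in the rest of the list. At the 93 lncRNA-start summits of the IDR list the median GC content was 33.7%, against 44.6% in their flanks. At the 241 outside the list it was 43.6%, against 42.6% in the flanks. Over the whole IDR list the summit value was 32.7% with 44.6% in the flanks, and outside it 40.6% with 42.6%. Strong coding-start peaks were less AT-rich, at 37.6%, and strong no-start peaks more so, at 30.7%. The window of CR46036, printed above, is an example of an AT-rich summit. Whether AT content itself affects the signal was not tested.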

How the data were processed

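The authors deposited 4 peak lists in dm6 coordinates: 1 for each replicate, 1 called on both replicates (pooled), each made from alignments and 1 control alignment, and 1 IDR list derived from these, per the deposited provenance notes. For the aligner, the peak caller and their settings: not given in the sources used here. Each peak signal is the authors' deposited value on a scale that is not stated. It was used to describe peaks and to rank them within a list. Values of both replicates are printed side by side, although their scales may differ. The other values used are the deposited peak starts, ends and summit offsets, which are positions with no normalization. The IDR list was exactly the 7915 strongest pooled peaks. The pooled list and both replicate lists had the same fixed length of 30000 peaks, and the read depth is unknown.

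Starts were taken from all transcripts of Ensembl release 115 (BDGP6.54), and sequence from RefSeq for the same assembly. Replicate peaks were matched by an overlap of 1 bp or more, taking the nearest summit. Shares have exact Clopper-Pearson 95% intervals. Summit windows were 101 bp. Found words were the 10 eight-base words with the highest ratio of summit to flank windows (1 added to each count) among those in at least 100 windows of the IDR peaks other than the lncRNA-start ones. The classification, matching and word counts were tested on simulated data. Python 3.11.15, numpy 2.4.6 and scipy 1.17.1 were used.

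The members, lists and words were chosen with earlier results of these data known. The genes named are the nearest lncRNAs of the 20 strongest members, a list of lncRNAs of known role, the 2 members nearest each side of the distance limit and of the IDR boundary, and the coding gene that contains or is nearest to each. Any other is said to be so, apart from the neighbours of the transcription factor list. No test over samples was possible with 1 group. Both replicates are distinct biosamples of a single line, per the labels. Alternatives were other distance limits, start definitions, peak midpoints, single replicates, a stricter IDR list, stricter overlap and wider windows.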

Additional observations from a re-analysis of the deposited data

How the results depend on the processing

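Of 48 values recomputed with other settings, 36 stayed within a set tolerance and 12 moved. The tolerance was 1.5-fold for counts of peaks, the 95% interval for shares and the SD between replicate lists (275) for the median rank. Within it, the count was 440 with all noncoding RNA genes and 279 at over 1000 bp from coding starts, against 334. With a distance limit of 100 bp there were 152 lncRNA-start peaks (median rank 13140), and with 500 bp there were 562 (median rank 14492). The share of lncRNA genes with a pooled summit was then 7.80% and 25.9%, and with an IDR summit 2.08% and 8.44%. Counting only the strongest 50% of the IDR list gave 16.5% of peaks and 3.05% of genes. Requiring 50% of the pooled peak to be covered in both replicates left 68.6%, and allowing only each replicate's 7915 strongest peaks left 30.5%, both by construction fewer. In the list of 1 replicate alone, the count was 333 to 338, the IDR-size share 27.6 to 30.2%, the gene shares 16.4 to 16.8% and 4.85 to 5.36%, and the share inside coding genes 24.9 in both. Windows of 100 bp to each side moved 6 of 11 word shares upward. Leaving out the 9 peaks that overlap a coding-start peak, an alternative chosen after seeing the data, changed no value beyond this tolerance. No paired analysis was possible because there is 1 group. Unknown depth limits any statement on weak peaks.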
